A study of Arabidopsis thaliana with 2 samples.

Results

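The basic helix-loop-helix (bHLH) genes examined here are those of Arabidopsis thaliana with a bHLH number in their symbol or a synonym, apart from the genes named below as left out. They were chosen by a rule on names, set with earlier results of these data known. Protein-coding genes whose symbol or synonym holds "bHLH" followed directly by digits matched 22 times, and 4 of these, all PRE genes, were left out, PRE2 and PRE4 by locus because the table lists them as BNQ2 and BNQ3. The rule also leaves out IBH1, IBL1, PAR1, PAR2, HBI1, BPE, CIL1, PIL1, HFR1 and named BEE, CIB, PIF and MYC genes, but not MYC1. This gave 18 members of the 27444 nuclear protein-coding genes in the gene table. Many bHLH genes are listed under another name and so are not among the 18. Of 74 bHLH genes in a list arranged by role, 60 were found in the table by name. Of these, 13 were members and 47 are described beside them as further bHLH genes.

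The study mapped where IBH1, an atypical bHLH protein, sits on chromatin, by chromatin immunoprecipitation and sequencing (ChIP-seq) with an antibody against green fluorescent protein (GFP). The tagged group was p35S::IBH1-GFP (IBH1OE) and the control group p35S::GFP (GFP OE), both untreated whole seedlings of ecotype Col-0 at an age of 10 days. The 35S promoter is a strong viral promoter active in most plant cells, so the tagged protein was not limited to the cells that normally make IBH1. Each group was 1 library, made from pooled ChIP experiments, so there is no spread between replicates and no test between groups. The labels name the tagged sample IBL1 in its title but IBH1 in its line, and give the control as Col-0 in the library protocol but as a GFP line elsewhere. Neither deposited list names a sample, and both were read as IBH1-GFP peaks from the design of the series. They hold 2944 peaks on the nuclear chromosomes, and the height of the control library at any gene is not in them.

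bHLH proteins pair through the helix-loop-helix part and touch DNA, mostly at short E-box motifs, through the basic part. Pairing between members decides much of what they do, and atypical members such as IBH1 that lack a working basic part can hold a partner away from DNA. In Arabidopsis the family controls, among other processes, iron uptake, stomata, root hairs, pigments, vascular tissue and flower organs. A gene is called bound when the summit of a peak, its highest point, was inside the gene or within 1000 bp of either end. The word says no more than that.

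Of the 18 members, 1 was bound, bHLH104 (AT4G14410), an activator of the iron deficiency response that pairs with ILR3. That is 5.56%, beside a background of 12.7% of all protein-coding genes (3499 of 27444). With so few members the share is imprecise: its exact binomial interval at 95% runs from 0.141% to 27.3% and includes the background. Such an interval covers counting error only, and 1 list of peaks allows no test of the difference. bHLH104 was also the bound member, 1 of 18, for summits inside genes alone (7.05% of all genes) and within 500 bp (10.6%). Those counts were fixed by its summit being inside the gene and that of the next member, TMO5, being 1842 bp away. The count was again 1 of 18 for midpoints of peaks in place of summits (12.8%) and for any base of a peak within 1000 bp (14.7%). It was the same for the nearest gene only (9.26%) and with peaks within 500 bp merged (12.6%). With peaks scoring 100 or more, 0 members and 3.38% of all genes were bound, and with peaks at or above the median score 0 members and 6.70%. Within 2000 bp there were 2 members, bHLH104 and TMO5, beside 16.7%. The share also depended on how names were read. A space allowed between "bHLH" and the digits takes in the FBH genes, CIB2 and CIB3. Then 3 of 24 were bound (12.5%), close to the background.

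The peak at bHLH104 spanned chromosome 4 from 8301079 to 8301820 (TAIR9), a width of 742 bp. Its summit at 8301409 was inside the gene, 259 bp from the end with the higher coordinate and 2013 bp from the other, and 589 bp of the peak overlapped the gene. The deposited score, which the peak caller derives from its p-value, was 52.8 at bHLH104, and 2675 of the 2945 peaks in the list scored higher. The summit was 24 fragments high, under the median of 27 over all peaks. The peak was therefore among the weaker ones of a list whose lowest score was 50.01. The neighbouring gene AT4G14420 was also in reach, with its near end 442 bp from the summit, so the peak counts for both genes although bHLH104 was the nearer.

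**Figure D1:**
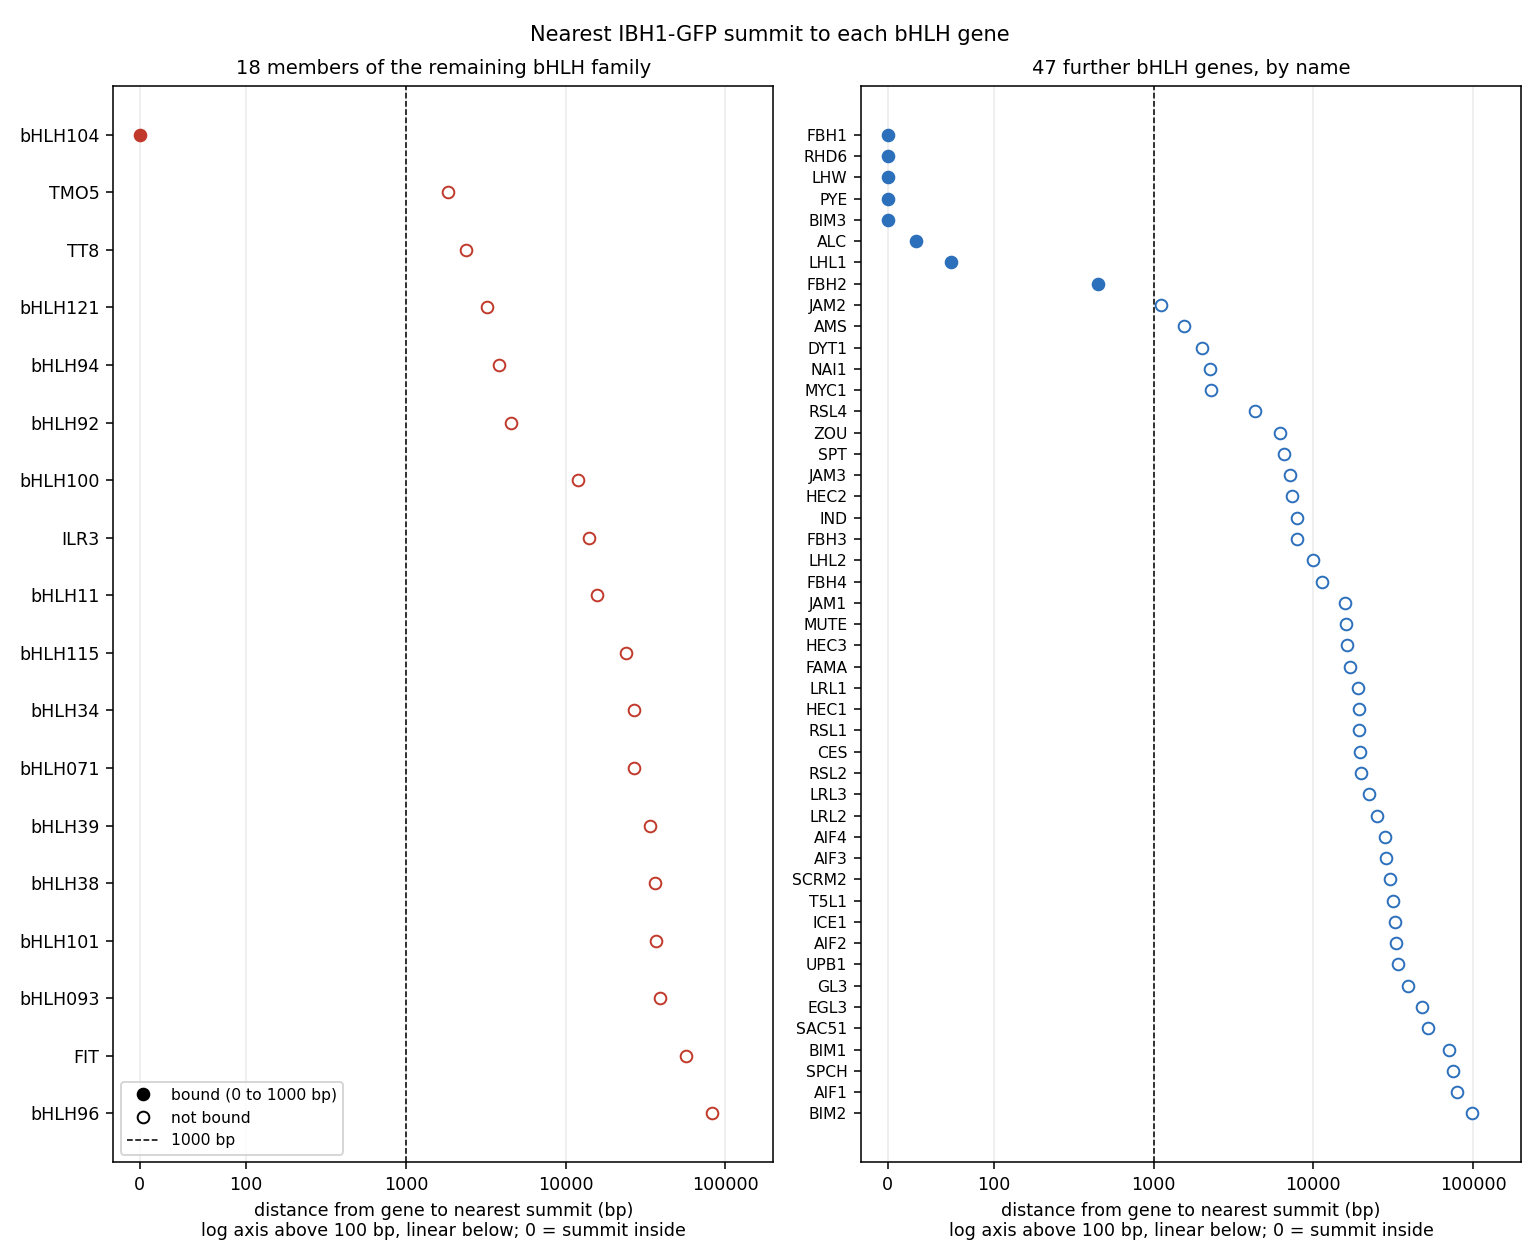
Distance in bp from each bHLH gene to its nearest IBH1-GFP summit, on an axis that is linear below 100 bp and logarithmic above, for the 18 members (left) and the 47 further bHLH genes (right). Filled points are genes called bound and open points are not; bHLH104 is the filled point among the members, and 8 of the further genes are filled.

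The iron genes made up most of the members, 11 of 18, and bHLH104 was the bound one. Its closest relatives were not bound. ILR3 (AT5G54680), its partner, had its nearest summit 14023 bp away, bHLH115 (AT1G51070) 23991 bp and bHLH34 (AT3G23210) 26701 bp away. These 4 proteins act in the upper tier of the response and switch on the genes of the next tier. In that tier bHLH38 (AT3G56970), bHLH39 (AT3G56980), bHLH100 (AT2G41240) and bHLH101 (AT5G04150) pair with FIT to drive iron uptake by roots. None of these 4 was bound, and their distances ran from 12009 bp at bHLH100 to 36961 bp at bHLH101. FIT itself (AT2G28160, listed as FRU) was farther still, with 57132 bp to the nearest summit. bHLH121 (AT3G19860), a partner of the upper tier, had a summit 3230 bp away, inside the gene next to it, AT3G19850. bHLH11 (AT4G36060), a repressor of the response, had its nearest summit 15706 bp away. bHLH38 and bHLH39 are neighbours and their nearest summit was the same one, in AT3G57062, so their distances are not independent.

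A gene of the iron list that the numbering rule does not take in, PYE (AT3G47640), was bound. PYE represses iron homeostasis genes and is itself switched on by bHLH104 and its relatives. Its peak, on chromosome 3 from 17566704 to 17567970, had the highest score of those at the bHLH genes described here, 109.69, and the tallest summit, 40 fragments. By score, 576 peaks of the list stood above it. The summit at 17567520 was inside PYE, 395 bp from its lower end, and 845 bp of the 1267 bp peak overlapped the gene. No other protein-coding gene was in reach. In all, 2 of the 12 iron genes found in the table were bound, near the background of 12.7% of all genes.

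**Figure D2:**
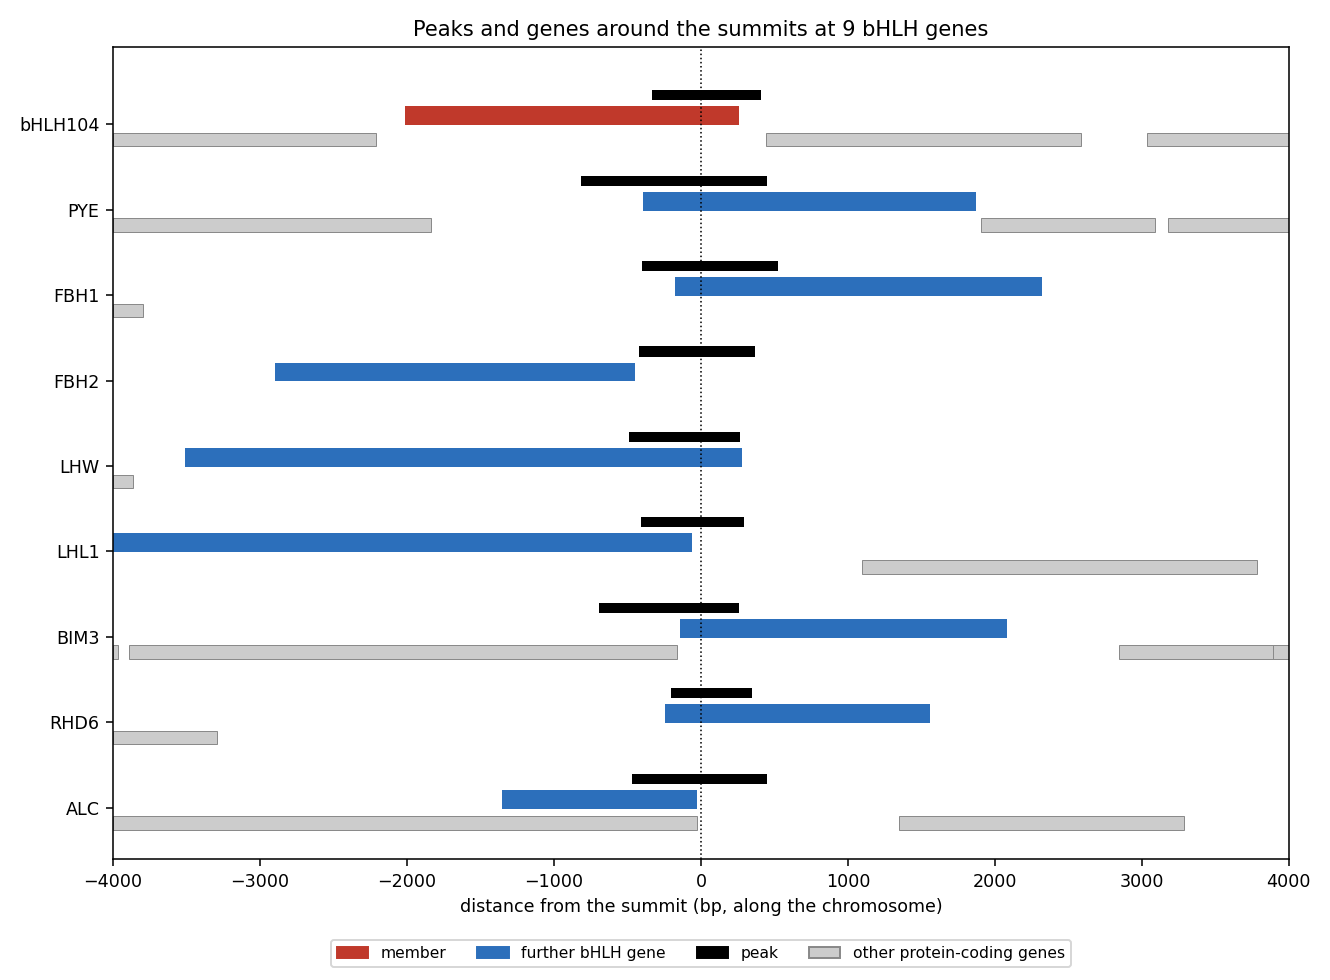
Peaks (black) and protein-coding genes around the summits at 9 bHLH genes, in bp from the summit along the chromosome, with bHLH104 in red, the further bHLH genes in blue and other genes in grey, cut at 4000 bp either way. At bHLH104, PYE, FBH1, LHW, BIM3 and RHD6 the summit is inside the gene and near one end; at ALC, LHL1 and FBH2 it is outside.

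The other 7 members were unbound. TMO5 (AT3G25710, also bHLH32), which with LHW directs cell divisions of vascular tissue, came nearest, with a summit 1842 bp away inside AT3G25716. That peak was among the stronger ones, scoring 121.54 at a height of 47. TT8 (AT4G09820, also bHLH42), a regulator of anthocyanin and seed coat pigment, had a summit 2364 bp away inside AT4G09830, with a score of 53.2. For bHLH94 (AT1G22490) the distance was 3828 bp and for bHLH92 (AT5G43650) 4530 bp, the summit of the second being inside TZP, a gene of light-dependent growth. bHLH071 (AT5G46690) and bHLH093 (AT5G65640), which can pair with the guard cell factor FAMA, had nearest summits 26866 and 39219 bp away. That nearest to bHLH071 was inside another bHLH gene, MYC3. bHLH96 (AT1G72210) was the farthest of the members, at 82960 bp, with 21 protein-coding genes in between.

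Between the bound member and the first unbound one there was thus a gap from 0 to 1842 bp. Of the 17 unbound members, 12 had no summit within 10 kb and 14 had their nearest summit inside another protein-coding gene. So did 28 of the 39 unbound further bHLH genes. Of all 2944 nuclear summits 67.5% were inside protein-coding genes, but that is a share of summits and not of unbound genes. The same share over all unbound genes is not given here. For 4 of the 17 unbound members, TMO5, TT8, bHLH121 and bHLH94, no whole protein-coding gene stood between the member and the summit. The median distance to the nearest summit was 19848 bp over the members and 13766 bp over all protein-coding genes, with quartiles of 4004 and 35492 bp for the members and 4194 and 34276 bp for all genes. Within 5000 bp of a summit there were 6 of 18 members (33.3%), beside a background of 27.7%. Within 10000 bp there were still 6 (33.3%), beside 41.9%. The members' share was below that of all genes at 1000 bp, above it at 5000 bp and below it again at 10000 bp, and none of these differences was tested.

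**Figure D3:**
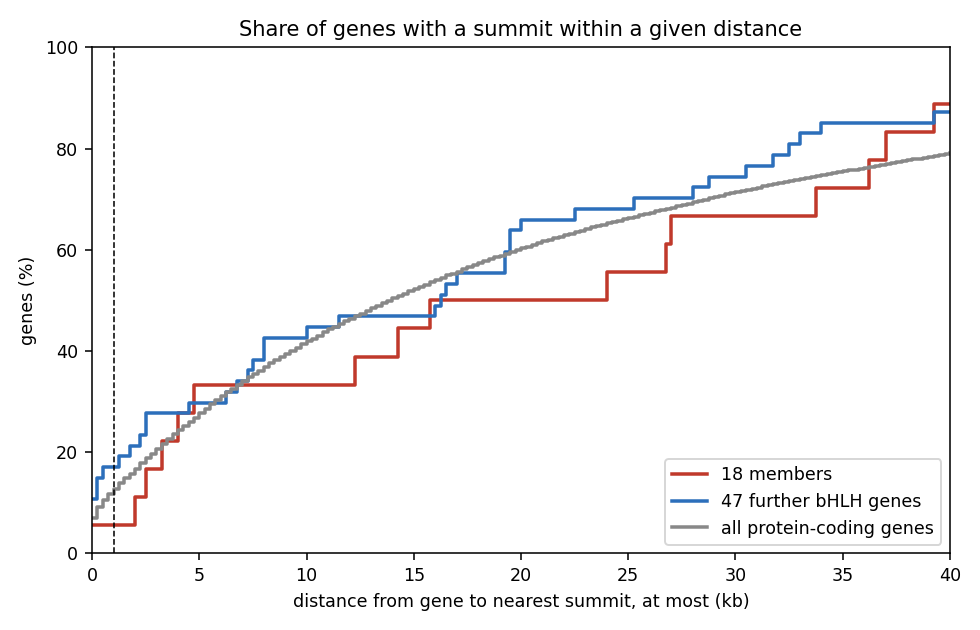
Percentage of genes whose nearest IBH1-GFP summit is at most a given distance away (kb), for the 18 members (red), the 47 further bHLH genes (blue) and all 27444 protein-coding genes (grey); the dashed line is at 1 kb. At that line the values are 5.56%, 17.0% and 12.7%, and the 3 lines cross several times at greater distances.

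Among the 47 further bHLH genes, 8 were bound, or 17.0% (exact 95% binomial interval 7.65% to 30.8%), beside the same background of 12.7%. The interval holds the background here too, and the list was drawn up with earlier results of these data known, so its share is a description. Each count of a role group below, from lists of 2 to 12 genes, is to be read beside that background and was not tested. Members and further genes together gave 9 bound of 65. The count of further genes bound fell to 5 of 38 when genes within 2 Mb of a gene-poor window (500000 bp with under 60 protein-coding genes) were left out, where the background was 10.5%. Of the 9 further genes in that zone 3 were bound, as were 21.9% of all 5322 genes in it. Of the members, 1 was in that zone, TT8.

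The genes that act on flowering time had 2 of 4 bound, beside 12.7% of all genes and 21.9% of those within 2 Mb of a gene-poor window, where both lie. FBH1 (AT1G35460), which activates the flowering gene CONSTANS, held a summit 176 bp from its lower end. The peak, on chromosome 1 from 13039434 to 13040360, scored 100.13 and was 26 fragments high. Its relative FBH2 (AT4G09180) had a summit 451 bp outside the gene, in a peak on chromosome 4 from 5849792 to 5850585 that did not overlap the gene, scoring 53.8 at a height of 20. FBH1 was inside a gene-poor window and FBH2 0.35 Mb from one, and 5 and 4 summits were within 10 kb of these genes. FBH3 (AT1G51140), also known as AKS1 for its part in stomatal opening, had its nearest summit 7941 bp away and FBH4 (AT2G42280) 11351 bp away. The summit nearest to FBH3 was also the one nearest to bHLH115.

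In the vascular list 2 of 6 genes were bound, beside 12.7% of all genes. They were LHW (AT2G27230) and its relative LHL1 (AT1G06150, listed as EMB1444). LHW, the partner of TMO5, held its whole 763 bp peak, on chromosome 2 from 11653373 to 11654135, with the summit 278 bp from its higher end. The score was 58.1 and the height 33. At LHL1 the summit was 60 bp outside the gene, in a peak on chromosome 1 from 1873381 to 1874086 scoring 61.6 at a height of 26. The third of these relatives, LHL2 (AT2G31280, listed as CPUORF7), had a summit 9929 bp away. T5L1 (AT1G68810), a relative of TMO5, was 31554 bp from a summit, and SAC51 (AT5G64340), which promotes stem elongation, 51891 bp.

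Of the bHLH genes tied to brassinosteroid action, 1 of 8 was bound. BIM3 (AT5G38860), a relative of the BES1 partner BIM1, held a summit 145 bp from its lower end in a peak on chromosome 5 from 15558349 to 15559302, scoring 78.2 at a height of 19. The gene on the other side, AT5G38850, was 163 bp from the same summit. BIM3 was 1.56 Mb from a gene-poor window, in the zone where 21.9% of all genes were bound, and 3 summits were within 10 kb of it. BIM1 (AT5G08130) and BIM2 (AT1G69010) were far from any summit, at 70406 and 98917 bp. The 4 AIF genes encode atypical bHLH growth repressors close to IBH1. None of the 4 was bound, with distances of 27977 bp at AIF4 (AT1G09250), 28551 bp at AIF3 (AT3G17100), 32884 bp at AIF2 (AT3G06590) and 78930 bp at AIF1 (AT3G05800). CES (AT1G25330), which promotes brassinosteroid synthesis genes, had its nearest summit 19493 bp away.

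RHD6 (AT1G66470), which starts root hair development, was the bound gene of 7 in the root hair list. Its 555 bp peak, on chromosome 1 from 24795251 to 24795805, was wholly inside the gene, with the summit 243 bp from the lower end, a score of 54.7 and a height of 18. Its relatives RSL4, RSL1 and RSL2 had summits 4320, 19333 and 19812 bp away, and the LRL genes 19170 to 25004 bp away. In the list of carpel and fruit genes 1 of 6 was bound, ALC (AT5G67110), which acts in the opening of the fruit. The peak on chromosome 5 from 26785992 to 26786908 scored 50.1, just above the lowest of the list, at a height of 27. In the gene table ALC and ICU2 (AT5G67100), a DNA polymerase gene, overlap and end at the same position. The summit was 27 bp beyond that shared end, so it counts for both genes. SPT, IND and the HEC genes were unbound, at distances from 6522 bp for SPT to 19201 bp for HEC1. The summit nearest to HEC1 was the one at ALC, so these distances are not independent either.

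No gene was bound in the stomatal list of 5, which holds SPCH, MUTE, FAMA, ICE1 and SCRM2, the factors of the guard cell lineage. Their nearest summits were 16055 bp (MUTE) to 74466 bp (SPCH) away. None of the 4 genes for trichomes and flavonoids was bound, where GL3 and EGL3 were 39206 and 47962 bp from a summit and MYC1 2293 bp. JAM1, JAM2 and JAM3, repressors of jasmonate responses, were unbound as well, but JAM2 (AT1G01260) missed the limit narrowly. A summit scoring 52.1 at a height of 31 was 1119 bp from JAM2, and no other protein-coding gene was nearer to it. JAM2 counted as bound where any base of a peak within 1000 bp was enough. AMS (AT2G16910), needed for the tapetum and pollen wall, had a summit 1543 bp away, inside UBC23. DYT1 (AT4G21330), which acts before AMS in the tapetum, had one 2018 bp away. With FBH2 at 451 bp on the inner side, JAM2, AMS and TMO5 were the genes nearest to the limit of 1000 bp. The remaining list held UPB1 (root growth), ZOU (endosperm breakdown) and NAI1 (endoplasmic reticulum bodies), at 33838, 6188 and 2263 bp.

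**Figure D4:**
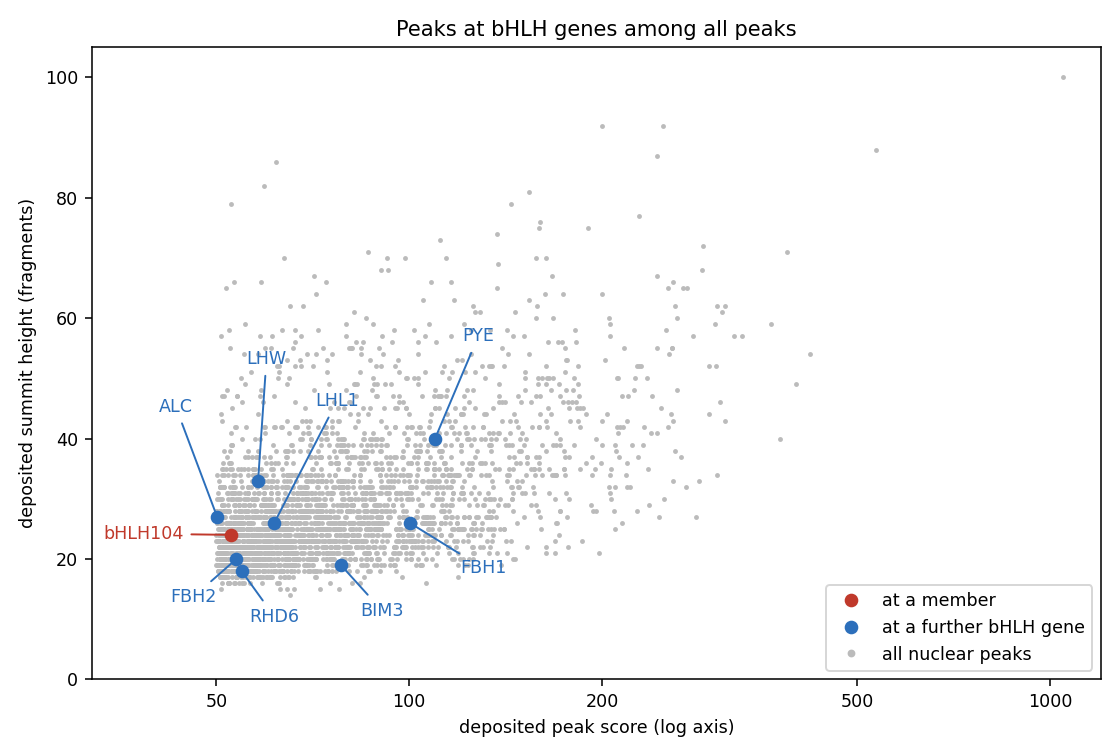
Deposited peak score (log axis) against deposited summit height (fragments) for the 2944 nuclear peaks (grey), with the peak at bHLH104 in red and those at the 8 further bHLH genes in blue. The 9 peaks scored 50.1 to 109.69 with heights of 18 to 40, in a list with a median score of 72.8 that reaches a score of 1045.71; PYE, FBH1 and BIM3 are above that median.

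By score, 6 of the 9 peaks at these genes were below the median of the list, 72.8, and PYE and FBH1 were above its upper quartile, 99.5. The 8 peaks at further bHLH genes had a median score of 59.8, from 50.1 to 109.69, while the nearest peaks of all 3499 bound protein-coding genes had a median of 73.4. Their heights had a median of 26 fragments, against 27 for all bound genes. Where the summit was inside one of these bHLH genes, in 6 cases, it was 145 to 395 bp from the nearer end of the gene, with a median of 251 bp. Over all 1934 protein-coding genes that held a summit the median was 342 bp, with quartiles of 169 and 596 bp. The gene table gives no strand, so the start and the end of a gene were not told apart.

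Gene length is a feature that moves with the share of genes bound: 15.7% of the genes of 3031 bp or more were bound, but 8.68% of those of 1323 bp or less. The members had a median length of 2034 bp, the further bHLH genes 2348 bp and all genes 2078 bp. Of these longest genes, 1 was a member and 11 were further bHLH genes. The part of length in the counts was not tested.

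For comparison, the names that the rule leaves out gave 30 genes in the gene table, of which 4 also matched the numbering. Of these 30, 6 were bound, IBH1, PAR2, BPE, PIF5, MYC2 and MYC3, which is 20.0% (exact 95% binomial interval 7.71% to 38.6%). The background was 12.7% of all protein-coding genes, which that interval holds. IBH1 is the tagged gene itself. Other families, matched by numbered symbols or synonyms, had 8 of 71 WRKY genes (11.3%), 7 of 104 NAC genes (6.73%) and 12 of 132 MYB genes (9.09%) bound, beside the same background of 12.7%. The share of 5.56% for the bHLH members was below each of these. With a space allowed it was 12.5%, above the WRKY, NAC and MYB shares, but the space was allowed in the bHLH names only. The order is therefore not settled, the interval of the members' share holds all of these values, and no difference between families was tested.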

How the data were processed

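The deposited peak list gives the caller's score for each peak and the deposited summit list gives the signal at each summit, a whole number of stacked fragments, for the series as a whole. Per the submitters' processing notes, the authors used CASAVA 1.8.2, Bowtie and MACS with the genome build TAIR9. Settings, read totals and any use of the control library in calling were not given in the sources used here. The depth is therefore unknown, and weaker peaks are not listed. Scores rank peaks within this list only. Gene names and bounds came from the RefSeq table of assembly TAIR10.1, which has neither strand nor exons. As a check of the bounds across builds, 67.5% of the 2944 nuclear summits were in protein-coding genes without a shift and 56.4% to 61.7% with shifts of 1000 to 5000 bp. Shifts under 1000 bp were not tried, so the check cannot show a smaller offset. Only TAIR9 coordinates are printed. PRE2 and PRE4, listed as BNQ2 and BNQ3, were left out by locus. A name that fitted several genes was given to the gene with that symbol. Distances and counts were computed with pandas 2.3.3 and numpy 2.4.6 and tested on simulated summits, and exact intervals with scipy 1.17.1. The text names each bound gene and the unbound genes of the role list. The members and lists were chosen with earlier results of these data known. The planned look at E-box sequence was not run, since no sequence was used here. Alternatives were other score limits, windows, peak positions and membership rules.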

Additional observations from a re-analysis of the deposited data

How the results depend on the processing

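Of the 18 members, none was bound with peaks that scored 100 or more (0, or 0%, beside 3.38% of all genes), nor with peaks at or above the median score (0, or 0%, beside 6.70%), because the peak at bHLH104 is weaker than both limits. The further bHLH genes bound numbered 2 (PYE, FBH1) and 3 (PYE, FBH1, BIM3) under these limits. With summits inside genes alone the member count stayed at 1, with 5 further genes and 7.05% of all genes. Within 2000 bp TMO5 joined, for 2 members beside 16.7%, and JAM2 and AMS joined the further genes, for 10. For any base of the peak within 1000 bp JAM2 joined, for 9 further genes. The share of all genes was 10.6% within 500 bp, 14.7% for any base of the peak, 9.26% for the nearest gene only and 10.5% without genes within 2 Mb of a gene-poor window, where 5 further genes were bound, and 1 member stayed bound under each of these 4. The member count was 3 of 24 (12.5%) where a space was allowed before the digits. This took in the FBH genes, CIB2 and CIB3, and added FBH1 and FBH2 to the bound members. That setting, PRE2 and PRE4 as members (1 of 20), the alternatives for further genes and the gene-poor one were chosen after seeing the data. Midpoints, merged peaks and symbols alone left 1 member bound. The score at bHLH104 has no value under the limit of 100. The planned look at sequence has no values. No paired analysis was possible because there was 1 library per group. With depth unknown, the lack of a listed peak does not show that IBH1 was absent from a gene.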
